A study of Mus musculus with 4 samples.

Results

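Syne1, Syne2, Macf1, Dst, Plec and Utrn encode giant proteins that tie the cytoskeleton to the nucleus, to intermediate filaments or to the cell membrane. These 6 genes were chosen from measured values of the same data, namely the number, position and fold enrichment of the m6A peaks over their exons, so their peak numbers are a description and no test was made on them. They are 6 of 21853 protein-coding genes with a representative transcript, here the transcript with the longest coding sequence (CDS). Their exons held 102 of 38533 peaks in replicate 1 and 98 of 30134 peaks in replicate 2.

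m6A-seq locates N6-methyladenosine, a methyl mark on adenosine in mRNA, by sequencing RNA fragments bound by an m6A antibody (IP) beside unselected fragments (input). The series holds 4 samples of whole brain, 2 IP replicates and 2 inputs, and a peak list belongs to each IP replicate. All samples are of C57BL/6J strain and 4 weeks of age, and the design text describes the animals as Prrc2a flox/flox, an allele that carries recombination sites in the gene of the m6A-binding protein Prrc2a. No Cre driver is named for these samples, and no second genotype or treatment was included, so the comparisons were between genes, exons and replicates. Each peak has a fold enrichment, IP divided by input on a linear scale, taken from the peak caller. The lists hold no read counts, so sequencing depth is unknown and the level of each RNA was not measured here. Markers of neurons (5 of 5 genes), astrocytes (4 of 4), oligodendrocytes (4 of 4) and microglia (3 of 3) all carried peaks in both replicates, and markers of other tissues (0 of 6) carried none in either replicate.

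Nesprin-1 and nesprin-2, encoded by Syne1 and Syne2, are anchored in the outer nuclear membrane, where they bind SUN proteins in the LINC complex, and a long rod of spectrin repeats carries their actin-binding domain into the cytoplasm. Macf1 and Dst encode spectraplakins, which cross-link actin and microtubules and act in neuronal migration and axon maintenance, while plectin (Plec) connects intermediate filaments to other structures and utrophin (Utrn) is the autosomal homologue of dystrophin at the membrane. All are long, many-exon genes with several promoters, and short isoforms can lack whole domains of the long ones.

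A shared interval, the unit used for most values, is the stretch of bases common to a replicate 1 peak and a replicate 2 peak. For each gene, up to 200 bases of CDS centred on the coding shared interval with the highest value of the lower fold enrichment are printed, since these are the strongest coding signals found in both replicates. The sequences run 5′ to 3′ on the strand of the gene, with coordinates of mouse build GRCm38 (mm10), and capitals mark GGAC, the core of the m6A consensus motif.
Syne1, exon 69 of Syne1-205, chr10:5248108-5248307, minus strand: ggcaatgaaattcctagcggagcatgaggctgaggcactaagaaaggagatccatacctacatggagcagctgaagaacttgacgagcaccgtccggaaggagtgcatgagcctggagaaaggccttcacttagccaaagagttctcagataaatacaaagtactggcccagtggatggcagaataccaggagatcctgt
Syne2, exon 95 of Syne2-201, chr12:76064093-76064287, plus strand: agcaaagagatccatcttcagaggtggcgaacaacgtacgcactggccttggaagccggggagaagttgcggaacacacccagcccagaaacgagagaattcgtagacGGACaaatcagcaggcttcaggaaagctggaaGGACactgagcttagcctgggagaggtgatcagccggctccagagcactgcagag
Macf1, exon 1 of Macf1-208, chr4:123410528-123410707, minus strand: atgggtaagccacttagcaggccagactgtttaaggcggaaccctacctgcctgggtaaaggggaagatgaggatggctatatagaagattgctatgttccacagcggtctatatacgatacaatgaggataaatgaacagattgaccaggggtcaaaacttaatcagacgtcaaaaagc
Dst, exon 39 of Dst-211, chr1:34190958-34191157, plus strand: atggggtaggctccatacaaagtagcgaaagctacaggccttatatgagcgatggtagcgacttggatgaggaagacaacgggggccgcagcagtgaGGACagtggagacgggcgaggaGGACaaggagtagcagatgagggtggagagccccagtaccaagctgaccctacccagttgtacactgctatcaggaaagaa
Plec, exon 33 of Plec-205, chr15:76176185-76176384, minus strand: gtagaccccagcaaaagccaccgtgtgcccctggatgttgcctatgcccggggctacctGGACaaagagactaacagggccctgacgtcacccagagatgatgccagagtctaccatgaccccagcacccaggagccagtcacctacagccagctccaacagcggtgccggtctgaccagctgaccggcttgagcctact
Utrn, exon 70 of Utrn-201, chr10:12405926-12406094, minus strand: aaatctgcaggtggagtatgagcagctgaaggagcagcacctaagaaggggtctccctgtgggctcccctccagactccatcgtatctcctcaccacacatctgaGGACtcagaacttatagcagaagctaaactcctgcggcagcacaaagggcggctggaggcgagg
The Syne2 and Dst stretches each held 2 GGAC, those of Plec and Utrn 1 each, and the Utrn copy was GGACT. The Syne1 and Macf1 stretches held 0. The whole Macf1 interval, longer than its printed stretch, held 2 GGAC, 1 of them GGACT, while the whole Syne1 interval held 0. The Macf1 stretch opened with the annotated start codon of the transcript Macf1-208.

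The 6 genes carried 67 shared intervals in all, resting on 63 distinct replicate 1 peaks and 66 distinct replicate 2 peaks. Of the replicate 1 peaks, 61.8% (63 of 102, 95% Wilson interval 52.1 to 70.6) overlapped a replicate 2 peak, beside 60.0% of all replicate 1 peaks. Of the replicate 2 peaks, 67.3% (66 of 98, 57.6 to 75.8) overlapped a replicate 1 peak, beside 77.0% of all replicate 2 peaks. The share in replicate 1 lay near that of all peaks, and the share in replicate 2 lay below it. These intervals cover counting error only, and peaks of 1 gene are not independent of each other.

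Every gene of the 6 had at least 1 shared interval. This held for 45.5% of all protein-coding genes and for 71.4% of the 378 genes with a representative mRNA of at least 10000 nt. At least 10 shared intervals were found in Syne1, Macf1, Dst and Plec (4 of 6), beside 0.357% of all protein-coding genes and 6.08% of those with such a long mRNA. Since the genes were chosen on these numbers, nothing further is read from these counts.

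Syne1 had 29 peaks in replicate 1, 29 in replicate 2 and 18 shared intervals. It stood at the top of all genes together with Pclo, the presynaptic scaffold piccolo, which also had 18. The rank depended on weak peaks: with peaks under a value of 2 left out of both lists, Syne1 had 5 intervals, Macf1 10, Plec 5, Dst 4, Utrn 3 and Syne2 1. With all peaks, Macf1 had 24, 20 and 17, with 2 genes above it, and Dst had 25, 19 and 14, with 9 genes above it. Plec had 10, 16 and 11. Utrn (8, 10 and 5) and Syne2 (6, 4 and 2) were lower, with 550 and 3212 genes above them. Other genes with many shared intervals were Myh10 (17), Tnrc18 (16) and Erc1 (15), all with mRNAs shorter than those of the 6 genes, from 7759 nt for Myh10 to 9342 nt for Tnrc18.

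**Figure D1:**
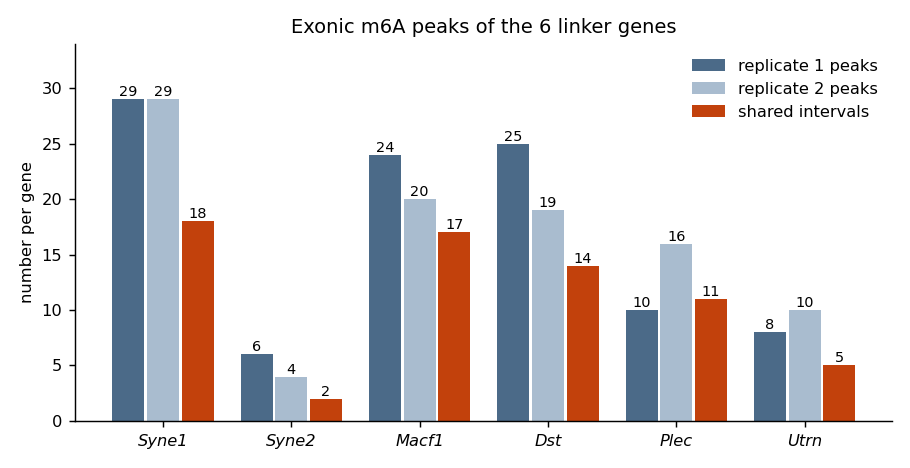
Bars give the number of exonic m6A peaks of each gene in replicate 1 and replicate 2 and the number of shared intervals, with the number above each bar. Syne1 has 29 peaks in both replicates, Syne2 has 6 and 4, and Plec and Utrn have more peaks in replicate 2 than in replicate 1.

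Because longer mRNAs offer more room for peaks, density per kb of representative mRNA was also computed. Intervals over exons of any transcript were counted, in these genes as in all others, while the length was that of the representative mRNA alone. Macf1 (23495 nt, 98 exons) had 0.724 shared intervals per kb, Plec (15455 nt, 33 exons) 0.712, Syne1 (27908 nt, 146 exons) 0.645 and Dst (23201 nt, 103 exons) 0.603. Utrn (12382 nt, 74 exons) had 0.404 and Syne2 (21690 nt, 116 exons) had 0.0922. Only 12 of the 17 Macf1 intervals had the midpoint on the representative mRNA, as did 13 of 14 in Dst, 10 of 11 in Plec and 4 of 5 in Utrn. The order of Macf1, Plec, Syne1 and Dst therefore depends on which intervals are counted. Among the 270 long-mRNA genes with a shared interval the median was 0.275 per kb and the quartiles were 0.137 and 0.485. Thus 4 of the 6 genes lay above the upper quartile, Utrn lay between the median and the upper quartile, and Syne2 lay below the lower quartile. Against all 9936 genes with a shared interval, whose median was 0.583 per kb and whose median mRNA was 3334 nt, the densities of Macf1, Plec, Syne1 and Dst were above the median by 1.24-fold or less. No density was computed from intervals on the representative mRNA alone, so this small margin is not read further.

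**Figure D2:**
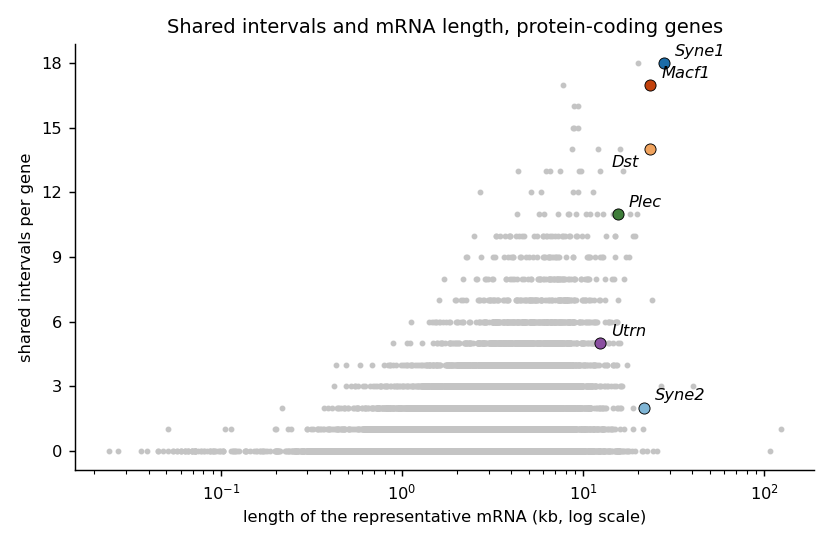
Each grey point is a protein-coding gene, placed by the length of its representative mRNA (kb, log scale) and its number of shared intervals, and coloured points are the 6 linker genes. Syne1, Macf1 and Dst lie at the upper edge of the cloud, and Plec, with 11, lies below some genes of similar mRNA length. Syne2, with an mRNA of 21690 nt, has 2 shared intervals.

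The enrichment at these intervals was modest. The median fold enrichment of the genes' exonic peaks was 2.23 in replicate 1 and 1.95 in replicate 2, beside 2.88 and 2.2 for all peaks. In 28 of the 67 intervals both replicates reached a value of 2 or more (41.8%, Wilson interval 30.7 to 53.7), as did 63.1% of all shared intervals. Replicate 1 gave the higher value at 48 of the 67 intervals, and it did so at 77.6% of shared intervals across the series. The 6 genes thus had many intervals of low enrichment, and replicate 1 was the higher one in the genes as in the whole lists.

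**Figure D3:**
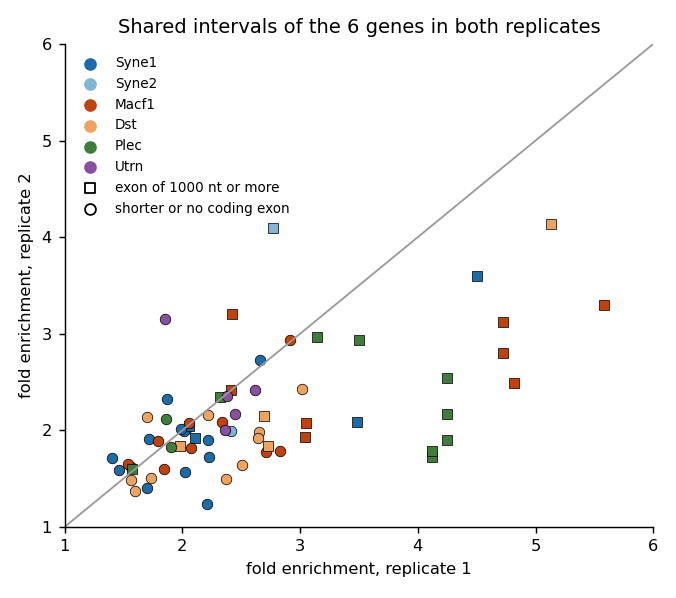
Each point is 1 of the 67 shared intervals, placed by its fold enrichment in replicate 1 (horizontal axis) and replicate 2 (vertical axis), with the line of equal values. Colours give the gene, and squares mark intervals with the midpoint in an exon of at least 1000 nt, while circles reach at most 3.02 in replicate 1 and 3.15 in replicate 2.

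Of the 67 intervals, 60 had the midpoint in CDS, 3 in a 3′ UTR, 1 in a 5′ UTR and 3 in no coding exon. The intervals were also divided by isoform. The midpoint of 9 lay in alternative sequence, exonic in at least 1 coding transcript and intronic in another, among them 5 in first exons of Macf1 transcripts. That of 11 lay in a last exon that no transcript skips. That of 44 lay in internal exons that no spanning coding transcript skips, but at 11 of these, all in Syne1, the annotation has only 1 coding transcript, which leaves nothing to compare. Of these 9 alternative intervals, 6 belonged to Macf1, 2 to Plec and 1 to Dst. Both Plec intervals were alternative through 1 transcript that skips their exon, and when transcripts without complete start and stop codons were left out, 3 intervals were alternative. No matching share of other genes' intervals or of exon length is given, so these isoform counts are not read as few or many.

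The nesprin genes differed most from each other. The 18 Syne1 intervals ran from exon 9 to the last exon, 146, of the transcript Syne1-205. The 14 that lay in exons under 1000 nt had values from 1.4 to 2.66 in replicate 1 and from 1.24 to 2.73 in replicate 2. The interval in exon 69 (327 nt), with 2.66 and 2.73, was the highest of these in either replicate, and it is the one printed for Syne1. The 2161-nt exon 77, at chr10:5227554-5229714, held 3 intervals. The first had 2.06 in replicate 1 and 2.04 in replicate 2, the second 3.48 and 2.09, and the third 2.11 and 1.92. Together they covered 51.3% of this exon, which lies in the rod-coding part of the transcript.

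The strongest Syne1 interval was that in exon 146, with 4.5 in replicate 1 and 3.6 in replicate 2. At 1602 nt it covered 95.7% of the exon, including the stop codon, and it reached past the annotated end of the gene. It held 4 GGACT and 9 GGAC. A second annotated stop, that of the short transcript Syne1-201 in its 2445-nt last exon, was covered by 1 replicate 2 peak (2.17) and by none of replicate 1.

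Syne2 had 2 shared intervals on 21690 nt of mRNA. The interval in exon 95 (195 nt) had 2.41 in replicate 1 and 1.99 in replicate 2. The interval in the last exon, 116 (1079 nt), had 2.77 and 4.09, covered the stop codon, and held 2 GGACT. The 2104-nt exon 48, similar in length to exon 77 of Syne1, carried 2 replicate 1 peaks (3.93 and 1.97) and no replicate 2 peak. The highest Syne2 value, 5.89, belonged to a replicate 1 peak with its midpoint in no coding exon and without a counterpart. Syne2 thus had no shared interval in its longest internal exon. Lower methylation, less RNA per cell and fewer cells that express the gene cannot be told apart here, because the lists give no RNA level.

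**Figure D4:**
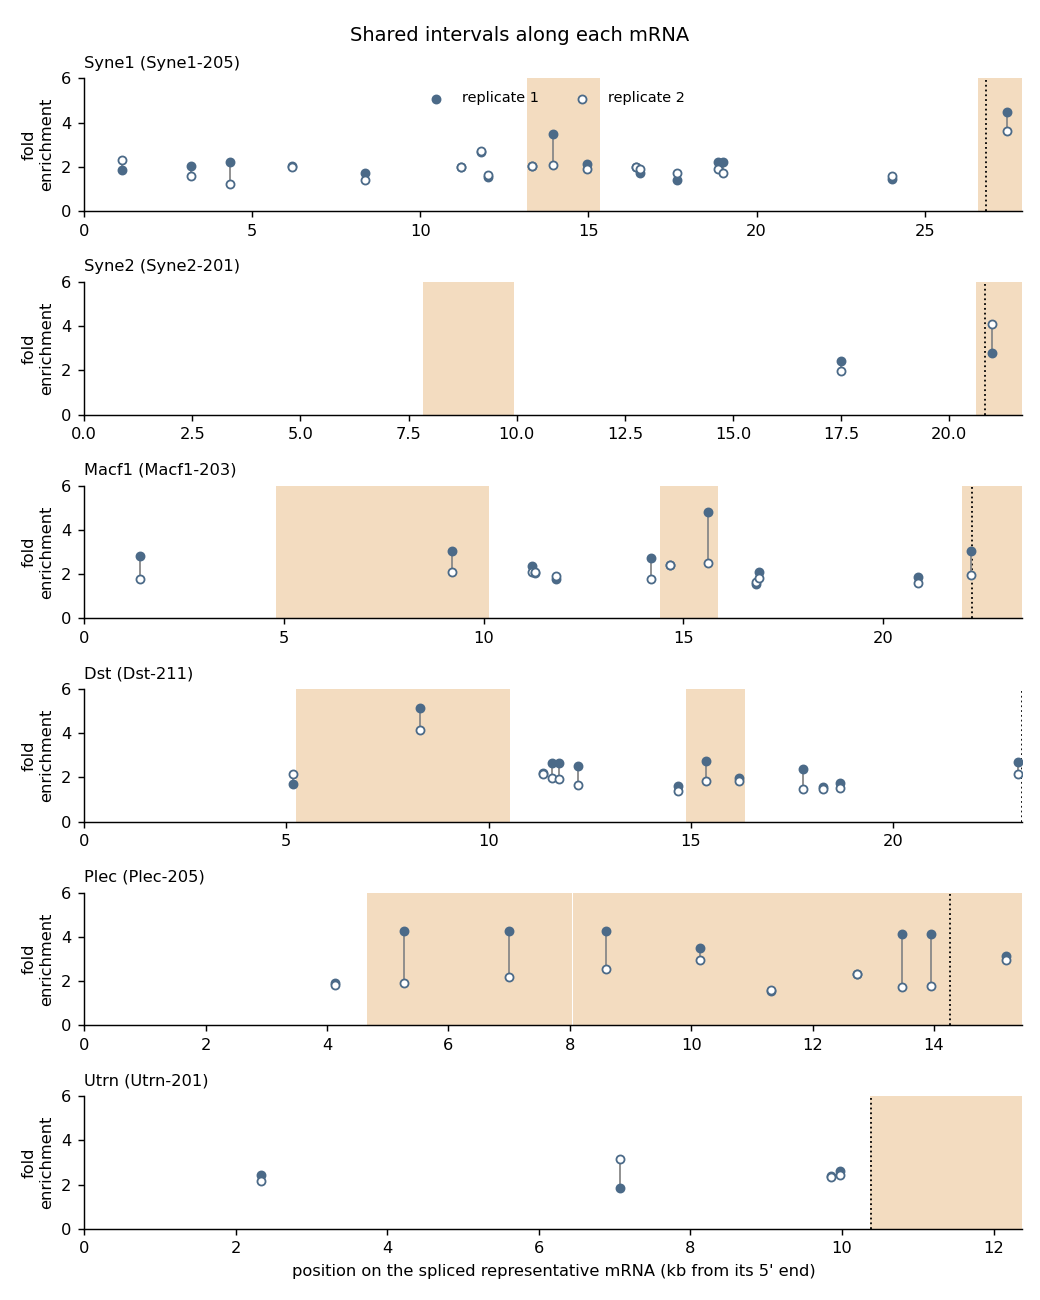
Filled (replicate 1) and open (replicate 2) circles give the fold enrichment of 59 of the 67 shared intervals at the midpoint on the spliced representative mRNA (kb from the 5′ end), the other 8 lying outside its exons. Shaded spans are exons of at least 1000 nt and dotted lines the ends of the stop codons, and the last 2 exons of Plec hold 9 intervals while the last exon of Utrn has none.

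In the spectraplakin gene Macf1, the highest values lay in a first exon that 8 coding transcripts skip. The 4791-nt first exon of the transcript Macf1-208, at chr4:123407438-123412228, is held by 1 coding transcript, an incomplete model of 6 exons. It carried 3 shared intervals, the first with 5.58 in replicate 1 and 3.3 in replicate 2. The second had 4.72 and 2.8 and the third 4.72 and 3.12, with 1 replicate 1 peak behind both. A replicate 1 peak in the 5′ UTR of this exon (6.81), the highest value of Macf1, had no replicate 2 counterpart. A replicate 2 peak in its CDS (2.87) had no replicate 1 counterpart.

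The 5331-nt exon 36 of Macf1-203, held by 4 coding transcripts and skipped by 6, was covered more sparsely. It had 4 replicate 1 peaks and 1 replicate 2 peak, which made 1 shared interval with 3.05 and 2.07. The other 3 replicate 1 peaks had 2.5, 3.1 and 3.36. Shared bases made up 9.94% of the exon block, so this exon, the longest of Macf1, had 0.187 intervals per kb against 0.626 in the first exon of Macf1-208.

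Another pair of alternative intervals of Macf1 also lay in first exons. That in the first exon of Macf1-212 (287 nt) had 2.91 in replicate 1 and 2.93 in replicate 2, and it was the only one of the 67 with its midpoint in a 5′ UTR. That in the first exon of Macf1-205, shared with Macf1-213, had 2.42 and 3.2. Of the exons that all spanning coding transcripts keep, the 1472-nt exon 57 stood out with 2 intervals, 2.41 and 2.42 for the first and 4.82 and 2.49 for the second. The 8 intervals in shorter kept exons had 1.54 to 2.83 in replicate 1 and 1.6 to 2.09 in replicate 2. At the stop codon, in exon 98, the values were 3.04 and 1.93, with the midpoint 31 nt before the end of the stop codon.

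Dst, the paralogue of Macf1, had its strongest interval in its longest exon. The 5292-nt exon 39 of Dst-211, at chr1:34187972-34193263, is held by 4 coding transcripts and skipped by 2, and its interval had 5.13 in replicate 1 and 4.14 in replicate 2, the highest lower value of the 67 intervals. The interval covered 5.95% of the exon, and 1 further replicate 1 peak (4.86) in it had no counterpart. The 1472-nt exon 60 carried 2 intervals, with 2.73 and 1.84 for the first and 1.98 and 1.84 for the second, and 84.8% of its bases were shared. Here 1 replicate 2 peak stood behind both intervals. The 9 intervals in shorter exons ranged from 1.56 to 2.65 in replicate 1 and from 1.37 to 2.16 in replicate 2, below exon 39 and overlapping the range of exon 60.

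Several long Dst exons carried no shared interval. The 2703-nt exon 23 and the 2770-nt exon 24 of Dst-213, a transcript of 24 exons, had no peak midpoint in either replicate, and neither had the 2047-nt last exon of Dst-205, a transcript of 6 exons. The 2308-nt first exon of Dst-220 had 2 replicate 1 peaks (2.98 and 2.72) and no replicate 2 peak. The stop codon common to 6 Dst transcripts was covered by an interval with 2.69 and 2.15, while the stops of Dst-205 and Dst-213 were covered by no peak. 1 Dst interval (3.02 and 2.43) had its midpoint in no coding exon and lay in the retained-intron transcript Dst-206. Thus no shared interval of Dst fell in the long exons of these shorter transcripts.

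Because Macf1 and Dst are paralogues, their exons could be set side by side. Of 96 internal exons of Macf1-203 and 101 of Dst-211, 81 pairs had the same length in the same order, with a median sequence identity of 64.1%. Exons of unequal length were left out, among them the longest exon of each gene. Some exons left out in either gene held shared intervals, so the counts below cover the 81 pairs only. A shared interval had its midpoint in 6 of the 81 Macf1 exons and in 6 of the 81 Dst exons, and 4 pairs had one in both genes. The 4 pairs were exon 42 of Macf1 with 45 of Dst (234 nt), 56 with 59 (496 nt), 57 with 60 (1472 nt) and 64 with 68 (207 nt). In replicate 1 alone, 9 Macf1 exons and 11 Dst exons had a peak midpoint and 5 pairs had one in both. In replicate 2 alone the numbers were 7, 11 and 5. This comparison was chosen after the values had been seen and no test was made on it.

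**Figure D5:**
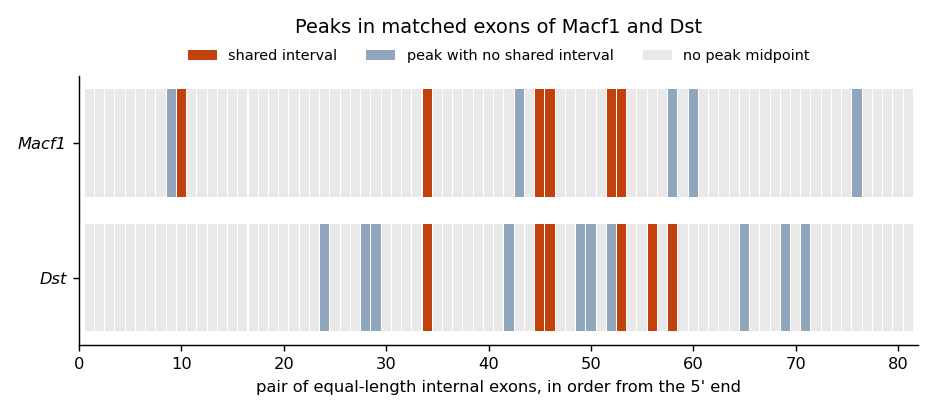
Each column is 1 of the 81 pairs of internal exons of equal length, in order from the 5′ end, with Macf1 above and Dst below. Colour gives whether a shared interval midpoint, only a peak midpoint or neither lies in the exon, and in 4 pairs both genes have a shared interval.

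The 1472-nt exon was the longest of the 81 pairs. The 2 Macf1 intervals spanned nt 120 to 419 and 982 to 1459 of the exon, and the 2 Dst intervals nt 1 to 975 and 1182 to 1454. The Macf1 intervals made up 52.9% of the exon, the Dst intervals 84.8% and the stretches in both genes 38.9%, so with intervals this wide an overlap says nothing about matching places. The 2 exons were identical at 33.4% of positions when set side by side without gaps, the lowest identity of the 81 pairs, and equal offsets need not be corresponding bases. The middle of the second stretch in both genes, nt 1259 to 1378, is printed for both genes to show the sequence under the signal in both.
Macf1, exon 57, chr4:123432092-123432211, minus strand: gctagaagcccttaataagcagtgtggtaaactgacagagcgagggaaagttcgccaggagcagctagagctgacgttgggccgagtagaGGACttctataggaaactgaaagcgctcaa
Dst, exon 60, chr1:34229033-34229152, plus strand: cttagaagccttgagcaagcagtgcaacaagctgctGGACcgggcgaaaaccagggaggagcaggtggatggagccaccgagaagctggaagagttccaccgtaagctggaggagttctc
Over these 120 bases, 55.0% of positions were identical, above the share for the whole exon, and each gene had 1 GGAC, at a different place. Both are written 5′ to 3′ on GRCm38 with GGAC in capitals.

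In Plec, most shared intervals lay in 2 long exons, which made up 61.1% of its coding-transcript exon length. The last 2 exons of Plec-205, exon 32 (3381 nt) and exon 33 (7412 nt), held 9 of its 11 shared intervals. Exon 32 had 2 intervals, with 4.25 and 1.9 for the first and 4.25 and 2.17 for the second, and 92.6% of its bases were shared. Exon 33 had 7 intervals and 61.4% of its bases were shared. Among these, the printed one had 3.5 in replicate 1 and 2.93 in replicate 2, spanned 1355 nt, and held 9 GGAC. Exon 32 encodes the coiled-coil rod of plectin and exon 33 its plakin repeats, which bind intermediate filaments.

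Counts in Plec depended on how each list cut the signal into peaks. A replicate 1 peak with 4.25 lay behind 3 Plec intervals, 2 in exon 32 and 1 in exon 33 (2.54 in replicate 2). Another, with 4.12, lay behind 2 intervals of exon 33, whose replicate 2 values were 1.72 and 1.79. With an overlap of at least 50% of both peaks required, 5 of the 11 Plec intervals were counted. The stop codon of Plec was covered by no peak in either replicate, although the 3′ UTR carried an interval with 3.14 and 2.97, its midpoint 920 nt after the stop codon. The 1 coding interval upstream of the long exons, in exon 28, had 1.9 and 1.83, and an interval with its midpoint in no coding exon had 1.86 and 2.12.

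Utrn had 5 shared intervals. The interval with the highest lower value, in exon 70 (241 nt), had 2.62 in replicate 1 and 2.42 in replicate 2, and the neighbouring exon 69 had 2.38 and 2.35. Exon 48 (206 nt) had 1.85 and 3.15, the only Utrn interval with the higher value in replicate 2. Exon 18 (88 nt) had 2.45 and 2.17, and a further interval (2.36 and 2.0) had its midpoint in no coding exon. The 2009-nt last exon, which is nearly all 3′ UTR, had no peak midpoint, and the stop codon was covered by no peak in either replicate. The 4 Utrn intervals in coding exons thus lay in exons of 88 to 241 nt.

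Over the 6 genes, 26 of 67 intervals (38.8%, Wilson interval 28.0 to 50.8) had the midpoint in an exon of at least 1000 nt, and such exons made up 35.9% of the coding-transcript exon length. Placed on representative transcripts alone, the share was 35.6% of 59 intervals, beside 49.1% of 19654 intervals of other genes. Per kb, the 26 intervals came to 0.48 in long exons and the 38 in shorter coding exons to 0.393. This order depended on the unit counted, since a wide peak can lie behind several intervals. Of the exonic peaks, shared or not, long exons held 30.4% in replicate 1 (31 of 102) and 27.6% in replicate 2 (27 of 98). Both lay below the 35.9% of length, as did the share of intervals when 50% overlap of both peaks was required (29.6%, 16 of 54). The genes differed among themselves in interval density. Density in long against shorter exons was 0.674 and 0.561 per kb in Syne1 and 0.559 and 0.565 in Macf1. It was higher in long exons in Plec (0.834 and 0.145) and in Syne2 (0.312 and 0.051, from 1 interval each). It was lower in long exons in Dst (0.223 and 0.546) and in Utrn (0.0 and 0.313). Over the 6 genes, median fold enrichment of intervals in long exons was 3.31 in replicate 1 and 2.25 in replicate 2, and in shorter exons 2.04 and 1.9. A peak behind several intervals enters these medians more than once. Over the peaks of each replicate, shared or not and each counted once, the medians were 3.05 and 2.34 in long exons and 1.95 and 1.83 in shorter ones. Placed on representative transcripts alone, the medians of the 6 genes were 3.14 and 2.09 in long exons against 2.05 and 1.89 in shorter ones. Intervals of other genes placed in the same way differed in the same direction, with 3.54 and 2.62 in long exons against 2.62 and 2.05 in shorter ones. In the 6 genes the exonic share of an interval moved with this difference. Its median was 100.0% in long exons and 65.8% in shorter ones, since intervals over short exons reached into introns, and its part in the difference was not tested.

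The 6 genes had 20 blocks of overlapping long exons, and 13 of them had a base in a shared interval. Across all representative transcripts this was so for 48.4% of 13562 long exons, counted exon by exon and without merging. The 7 blocks without a shared interval were 4 of Dst and 1 each of Syne1, Syne2 and Utrn, so all long blocks of Macf1 and Plec had one.

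Few intervals had the midpoint near a stop codon. The midpoint of 3 of the 67, in Syne2, Macf1 and Dst, was within 200 nt of the end of an annotated stop codon on the spliced transcript. Of 59 intervals placed on the representative transcripts, 5.08% did so (Wilson interval 1.74 to 13.9), beside 23.0% of 19615 intervals in other genes. The share of placed intervals in CDS was 94.9% (86.1 to 98.3), beside 61.7% in other genes. The mRNAs of the 6 genes are long and mostly CDS, and the part of length in both shares was not tested. Shared intervals covered 4 of the 9 annotated stop codons.

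The share of intervals with GGAC was about the same in the 6 genes as elsewhere, and the share with GGACT was lower by less than its counting error. GGAC was found on the strand of the gene in 53 of 67 intervals (79.1%, Wilson interval 67.9 to 87.1) and GGACT, which contains it, in 23 (34.3%, 24.1 to 46.3). In intervals of other genes, placed on representative transcripts, the shares were 82.0% for GGAC and 43.1% for GGACT, at a median length of 338 nt against 315 nt in the 6 genes. Placed in the same way, 59 intervals of the 6 genes had shares of 79.7% for GGAC and 33.9% for GGACT (23.1 to 46.6). Per kb of these placed intervals, GGACT was less frequent in the 6 genes, at 1.07 against 1.54 in other genes. Shared intervals covered 15.6% of the coding-transcript exon length of the 6 genes and held 30 of 149 exonic GGACT (20.1%) and 124 of 693 GGAC (17.9%). Most copies of the motif in these mRNAs were therefore outside shared intervals. Plec had the largest share inside, 46.5% of its length and 44.4% of its GGACT.

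A peak counted as exonic when any base lay over an exon of any transcript, so few peaks could count as intronic. Peaks wholly within introns numbered 4 in replicate 1, with 4.96 and 3.65 in Syne1, 3.96 in Macf1 and 4.42 in Plec, and 0 in replicate 2, and none had a counterpart. Beside these, 3 shared intervals, counted as exonic, had the midpoint in no coding exon. No matching share over all peaks is given, so these numbers are not read as few or many.

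A list of 32 partner and related genes was set beside the 6 genes, and 19 of them had a shared interval, where 45.5% of all protein-coding genes had one. Of LINC complex and lamina genes, which hold the nesprins at the nucleus, 4 of 10 had one, among them Lmnb2 and Tor1aip1 with 3 each. Of the plakin family, 1 of 4 had one. Of the dystrophin family and its complex, which utrophin resembles, 7 of 9 had one, among them Dtnb with 3. Of microtubule plus-end and actin partners of the spectraplakins, 7 of 9 had one. There Clip1, a microtubule plus-end protein, had 13 and Dync1h1, the dynein heavy chain, had 8. Dmd, the dystrophin gene, which is named for its relation to Utrn, had 6 replicate 1 peaks, 1 replicate 2 peak and 0 shared intervals.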

How the data were processed

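The authors sequenced m6A IP and input libraries of mouse brain, trimmed adapters with Cutadapt, filtered reads with Trimmomatic, aligned them to mm10 and kept uniquely mapped reads. The submitters' processing notes name TopHat2 2.0.9 and MACS2. Peaks were called by the authors per IP replicate against its own input, without a fragment-size model, with duplicates kept and a cutoff on the false discovery rate, and replicates were not pooled. Each deposited peak has a position and a fold enrichment, which is the ratio of IP to input. Peaks are called on the genome, so peaks over short exons reach into introns. Kept duplicates and low input coverage can raise the ratio.

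Gene models were GENCODE M21 on GRCm38, patch 6, whose chromosome sequences are those of mm10. All 36 complete coding transcripts of the genes read ATG first, with lengths in multiples of 3. A shared interval needed an overlap of at least 1 bp and was counted for a gene when any base lay over an exon of any of its transcripts. Long exons had at least 1000 nt. Overlaps were computed with Python 3.11.15 and checked on simulated intervals and against bedtools 2.31.1. Sequence was read with pyfaidx 0.9.0.4, Wilson intervals came from scipy 1.17.1 and plots from matplotlib 3.10.9. The genes and lists were chosen with earlier results of these data known, so no test was made. Named in the text were the 6 genes, the 5 other genes with the most shared intervals (1 of which is not reported here), and at most 6 listed linker genes with the most. Single intervals named were the strongest coding interval of each gene and those in long exons. Others named, and Dmd, were chosen after their values were seen. The alternatives were overlap of 50% of both peaks, fold enrichment of at least 2, merging within 100 bp, each replicate alone, midpoints in place of any base, other exon lengths and stop windows, complete transcripts and GGAC. Input samples had no processed files used here.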

Additional observations from a re-analysis of the deposited data

How the results depend on the processing

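No paired analysis was possible because no test was made, and the input samples enter only through the ratios. When peaks under a value of 2 were left out of both lists, the 67 shared intervals became 28 (Syne1 5, Syne2 1, Macf1 10, Dst 4, Plec 5, Utrn 3), the share in long exons 64.3%, the share with GGACT 46.4% and the shared share of replicate 1 peaks 40.0%. Requiring 50% overlap of both peaks gave 4 alternative intervals, 5 in Plec and a shared share of 55.1% in replicate 2. Complete transcripts gave 3 alternative intervals, exons of at least 2000 nt a share of 25.4%, a stop window of 100 nt 1 interval and one of 400 nt 5 intervals, and GGAC in place of GGACT 79.1%. Without one replicate, the peaks numbered 98 to 102, the long-exon share was 27.6% to 30.4%, the alternative count 11 to 14, the stop count 3 to 4 and the GGACT share 26.5% to 34.3%. Over 85 alternative values, 57 stayed within 1.5 times a count, the Wilson interval of a share or, for a median, 1 SD of the peak values, and 28 moved further. Merging peaks within 100 bp joined peaks elsewhere in the lists and moved none of these values. The shared share has no value without a replicate. Depth is unknown, so a gene without peaks cannot be told from one too little sequenced. Causes were not tested.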
